A study of Mus musculus with 2 samples.

Results

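Open sites at the 3' ends of genes were mapped in hippocampal tissue of mice by DNase-seq, in which the enzyme DNase I cuts accessible DNA and the cut ends are sequenced. A site was a peak whose midpoint lay within 1 kb of the 3' end of a protein-coding gene of GENCODE M21 (mm10, GRCm38). It also had to lie more than 2 kb from the 5' end of every annotated gene, with less than 0.5 of its length on coding sequence. Replicate 1 had 1837 such sites among 115072 peaks and replicate 2 had 1529 among 95711, or 1.596% and 1.598% of the peaks.

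The tissue came from male B6CASTF1/J mice, the F1 offspring of a cross between the strains C57BL/6 and CAST/EiJ, at an age of 14 days. There was 1 group of 2 biological replicates, with no treatment and no second condition. The labels call the tissue a layer of hippocampus without naming the layer, give 3 males on each label and carry the same donor identifier on both, so whether the replicates hold different animals is not known. Of 15 pan-neuronal marker genes, 14 had a peak within 1000 bp of the gene start in both replicates, against 4 of 14 microglial, 4 of 13 striated muscle and 2 of 14 liver genes. Such a peak was found at 13081 of all 21938 protein-coding genes, at 17 of 18 housekeeping and 19 of 20 activity-induced genes, at 10 of 14 astrocyte genes, and at 5 of 14 in each of the oligodendrocyte lineage and endothelial lists.

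At the 3' end of a gene, cleavage and polyadenylation release the transcript, and the polymerase runs on past the end before it leaves the DNA. The nucleosome-free DNA that DNase I reveals marks enhancers, insulators and other places where proteins bind, and not only promoters. CTCF, a zinc finger protein that binds a long asymmetric motif, is known for halting the loop-extruding complex cohesin according to the orientation of its motif. AP-1 factors (the Fos and Jun families) and NeuroD factors bind enhancers in neurons, and SP and KLF factors bind GC-rich promoters.

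A CTCF core motif was present in 15.4% of the 3' end sites, against 9.30% to 9.74% of other distal peaks, and the sequences below show it with the other motifs that the results turn on. The letters searched were CCA, AG and GGC, with 2 free bases between them, for the CTCF core, TGANTCA for AP-1, GGGCGGG for SP and KLF and AATAAA for the poly(A) signal. Each line gives the highest shared sites with the motif that carry no annotated UTR base, with 50 bp on either side of it, from GRCm38 and written along the strand of the gene. Capitals mark the motif. Each of the first 3 lines holds a CTCF core.
Ripor1, CTCF core: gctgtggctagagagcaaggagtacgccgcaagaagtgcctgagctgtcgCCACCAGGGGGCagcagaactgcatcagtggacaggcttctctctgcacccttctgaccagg
Lag3, CTCF core on the opposite strand: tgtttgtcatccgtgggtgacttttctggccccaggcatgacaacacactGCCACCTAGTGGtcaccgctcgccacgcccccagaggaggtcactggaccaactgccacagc
Bcan, CTCF core: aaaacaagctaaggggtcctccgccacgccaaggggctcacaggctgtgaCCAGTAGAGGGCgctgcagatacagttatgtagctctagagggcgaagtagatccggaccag
Gpr84, AP-1: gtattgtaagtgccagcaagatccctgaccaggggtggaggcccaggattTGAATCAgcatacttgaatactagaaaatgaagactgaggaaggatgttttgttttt
Sncb, AP-1: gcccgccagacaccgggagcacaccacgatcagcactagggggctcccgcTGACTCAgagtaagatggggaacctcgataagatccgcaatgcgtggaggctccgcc
Slc11a1, SP and KLF: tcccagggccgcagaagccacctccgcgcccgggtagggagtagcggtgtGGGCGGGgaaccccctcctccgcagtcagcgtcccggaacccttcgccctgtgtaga
Optc, poly(A) signal: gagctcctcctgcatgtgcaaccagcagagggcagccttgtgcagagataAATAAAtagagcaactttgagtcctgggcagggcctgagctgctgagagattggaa

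The stretch at Ripor1 is chr8:105622516-105622627 on the plus strand. The stretches at Lag3, an inhibitory receptor of lymphocytes, and at Bcan, the brain proteoglycan brevican, are chr6:124903700-124903811 and chr3:87987094-87987205 on the minus strand. Those at Gpr84, a fatty acid receptor of myeloid cells, and at Sncb, beta-synuclein, are chr15:103307186-103307292 and chr13:54758161-54758267 on the minus strand. The stretch at Slc11a1, a metal transporter of macrophages, is chr1:74386856-74386962 on the plus strand, and the one at Optc, the eye proteoglycan opticin, is chr1:133896428-133896533 on the minus strand. All lie downstream of the gene they are named for. The Gpr84 and Optc sites each held a CTCF core match as well as the motif in capitals. The AATAAA of Optc, in a site at +698 bp past the annotated end, is a match of letters and not a signal known to be used.

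The authors' value per peak, whose unit and scaling are not stated, is used here to describe and rank peaks within a library. The Bcan site stood at 3.59 in replicate 1 and 4.17 in replicate 2, with 4 and 2 footprints. A footprint is a short stretch inside open DNA that is protected from cutting. The Ripor1 site had values of 4.09 and 4.41 and the Lag3 site had values of 3.30 and 4.52. The Sncb site stood at 2.27 and 2.58, with 5 and 4 footprints. These values lie in the upper part of the range, as the median 3' end site stood at 0.665 in replicate 1 and 0.775 in replicate 2.

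Peaks were denser around gene ends than elsewhere in sequence that could hold such a site, that is, more than 2 kb from gene starts and outside coding sequence. Within 1 kb of an end there were 57.2 peak midpoints per Mb in replicate 1, against 32.7 per Mb in the rest, a ratio of 1.75. In replicate 2 there were 47.7 per Mb against 25.7 per Mb, a ratio of 1.86. The sequence near ends had a GC content of 43.6%, against 41.3% elsewhere. The 3' end sites lay closer to the nearest gene start, at medians of 8400 and 8114 bp, against 21534 and 20474 bp for other distal peaks, so the ratio was also taken at equal distance from a start. It was 1.57 in replicate 1 and 1.595 in replicate 2 at 2 to 5 kb, 1.75 and 1.78 beyond 50 kb, and between 1.51 and 1.81 in the ranges between them.

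The rise was broad and broken at the end itself. The density was 41.1 and 36.1 per Mb in replicates 1 and 2 at 8 to 10 kb inside the gene, and 42.9 and 38.1 per Mb at 8 to 10 kb downstream. At 2000 to 3000 bp downstream it was 55.9 and 46.2 per Mb, near the 57.2 and 47.7 per Mb within 1 kb of an end. At 2000 to 3000 bp inside the gene it was lower, at 46.2 and 39.8 per Mb. Downstream, the higher density was thus not limited to the 1 kb of the rule. The density was highest at 200 to 400 bp downstream of the end, with 70.9 and 55.9 per Mb. In the last 200 bp of the gene it was 36.8 and 25.2 per Mb, which is below the density 10 kb away in both replicates. Footprints dipped at the same place, at 92.2 and 67.5 per Mb in the last 200 bp and 144 and 115 per Mb at 200 to 400 bp downstream. The GC content was 39.0% in the last 200 bp and 44.6% at 200 to 400 bp downstream, and its part in the dip was not tested.

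**Figure D1:**
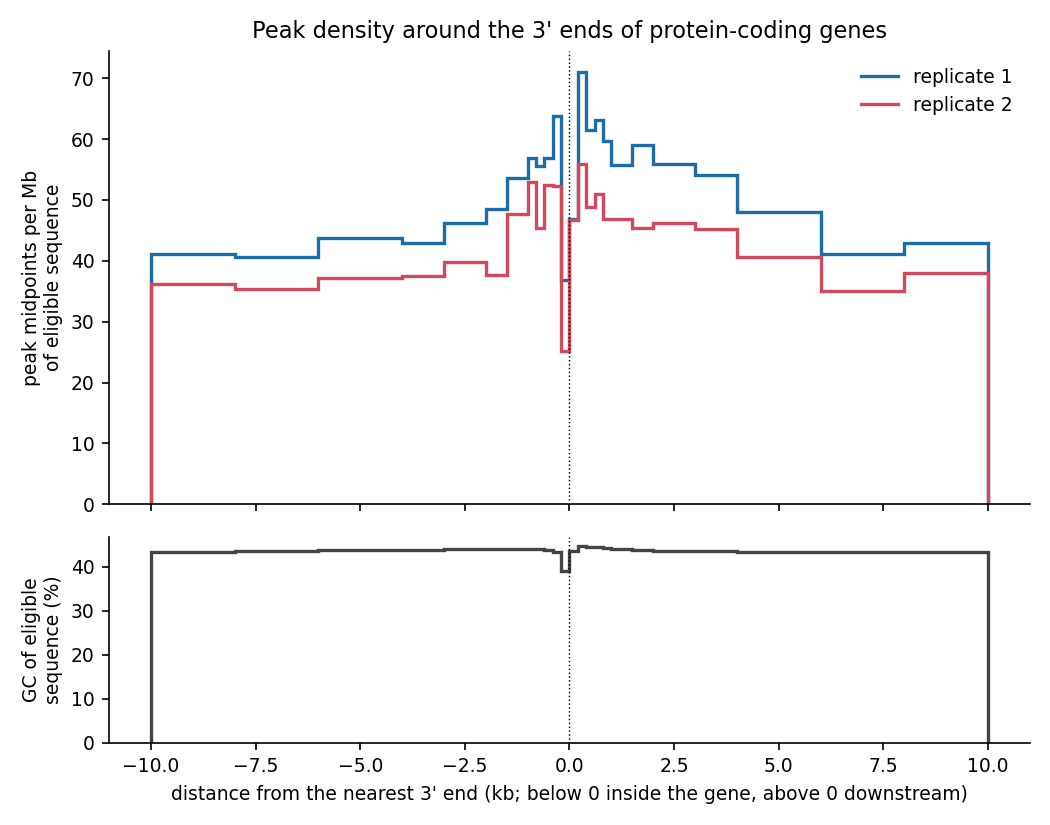
Peak midpoints per Mb of eligible sequence (upper plot) and GC content in percent (lower plot) by distance in kb from the nearest 3' end of a protein-coding gene, for both replicates. The density peaks at 70.9 and 55.9 per Mb just downstream of the end and dips to 36.8 and 25.2 per Mb in the last 200 bp of the gene.

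Ends of neighbouring genes that run toward each other had a higher density of open sites. Where the 3' ends of genes on both strands lay within 1 kb, there were 100.2 midpoints per Mb in replicate 1, against 55.3 per Mb where ends of 1 strand did. Replicate 2 had 95.1 against 45.6 per Mb. This convergent sequence is short, 1.37 Mb against 30.4 Mb, and its sites were 136 (7.40%) and 126 (8.24%) of all 3' end sites.

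Slightly more sites lay past the gene end than inside it, 1006 (54.8%, exact 95% interval 52.5% to 57.1%) in replicate 1 and 829 (54.2%, 51.7% to 56.7%) in replicate 2. These intervals cover counting error only. The 2 sides also differ in eligible sequence, which leaves out coding sequence and stretches near gene starts. It was 3.29 Mb in the last 200 bp of the gene, against 3.47 Mb in the first 200 bp downstream. At 800 to 1000 bp from the end it was 2.89 Mb inside and 3.22 Mb downstream, so equal shares are not the baseline. The part of this in the share downstream was not tested. Of the sites inside the gene, 78.9% and 80.7% had their midpoint in an annotated UTR. Of those downstream, 80.6% and 78.0% lay between genes, and most of the rest lay in introns of another gene. The rule's limits do not stand out in the values: sites in the outermost 100 bp of the 1 kb stood at medians of 0.679 and 0.709 in the 2 replicates, and distal peaks in the next 100 bp outside it had 0.615 and 0.811.

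The 3' end sites had higher values than other distal peaks, which are all other peaks more than 2 kb from gene starts and with less than 0.5 of their length on coding sequence (78359 and 61542 peaks). The median value was 0.665 in replicate 1, against 0.523 in other distal peaks, and 0.775 in replicate 2, against 0.628. The values of 3' end sites ran between 0.0778 and 28.8 in replicate 1 and between 0.114 and 39.9 in replicate 2. The widths were alike, with a median of 200 bp for 3' end sites in each replicate and 200 and 194 bp for other distal peaks. The median GC content of the 200 bp about the midpoint was 52.5% and 54.0% in 3' end sites, and 50% and 51.5% in other distal peaks. No test was made between sets of peaks, here or below, since peaks of 1 library are not replicates. Where an interval is said to hold another share or lie clear of it, this describes counting error over sites only.

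At equal GC content the difference in value was still seen in most ranges. With 50% to 55% GC the median was 0.651 and 0.734 in 3' end sites, against 0.552 and 0.620 in other distal peaks. With 60% GC or more it was 0.990 and 1.07, against 0.940 and 1.11, so there the replicates differed in direction. Without a CTCF core the medians were 0.629 and 0.717 in 3' end sites, against 0.502 and 0.603 in other distal peaks. In each range of distance from a gene start the difference kept its direction, but it varied in size. At 2 to 5 kb from a start the medians were 0.665 and 0.746, against 0.594 and 0.717 in other distal peaks. Beyond 50 kb they were 0.520 and 0.701, against 0.460 and 0.530.

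Of the 3' end sites, 1154 (62.8%, 60.6% to 65.0%) in replicate 1 were overlapped by at least 1 bp of a peak of replicate 2, and 1129 (73.8%, 71.6% to 76.0%) in replicate 2 by a peak of replicate 1. Over all peaks the share was 65.3% and 78.4%, and over other distal peaks 59.9% and 76.5%. The 3' end sites were thus above other distal peaks in replicate 1 and below them in replicate 2, and below all peaks in both. At equal value, and below the highest range, the share was lower for 3' end sites. In the upper middle range of values, between the median and the upper quartile of other distal peaks, 60.5% and 76.9% of 3' end sites were shared, against 71.5% and 86.9% of other distal peaks. In the range above it the shares were 94.5% and 98.6%, against 95.7% and 98.2%.

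Sites without a peak in the other replicate were weak, at a median of 0.445 (replicate 1) and 0.481 (replicate 2), against 0.930 and 1.00 for sites with one. Of these unshared sites, 81 of 683 (11.9%) in replicate 1 and 58 of 400 (14.5%) in replicate 2 lay over a stretch that the other replicate lists for its rate of cuts. Among unshared other distal peaks it was 11.5% in replicate 1 and 19.6% in replicate 2, level with the 3' end sites in replicate 1 and above them in replicate 2. The highest were a second site of 1700001O22Rik, a gene of unassigned role, at 4.20 in replicate 1, and a site at the agouti gene a, which controls coat pigment, at 2.01 in replicate 2. Over both, the other replicate lists stretches, with lowest false discovery rates of 3.27e-42 and 1.92e-24. Next came Pde4c, a cAMP phosphodiesterase gene, at 1.62 in replicate 1, and Rex1bd at 1.36 in replicate 2.

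When each site was paired with its best overlap, 1052 sites were shared as 3' end sites in both replicates. Across these sites the Spearman rank correlation between the replicates' values was 0.925. It was 0.902 over the 46942 other distal peaks of replicate 1 that any peak of replicate 2 overlaps. The 2 correlations thus rest on unlike rules of pairing. This is a description across sites, which share 2 libraries. The value in replicate 2 was a median of 1.12 times that in replicate 1, with quartiles of 0.964 and 1.27. The mean of both values had a median of 0.986 over the shared sites, with quartiles of 0.664 and 1.52.

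**Figure D2:**
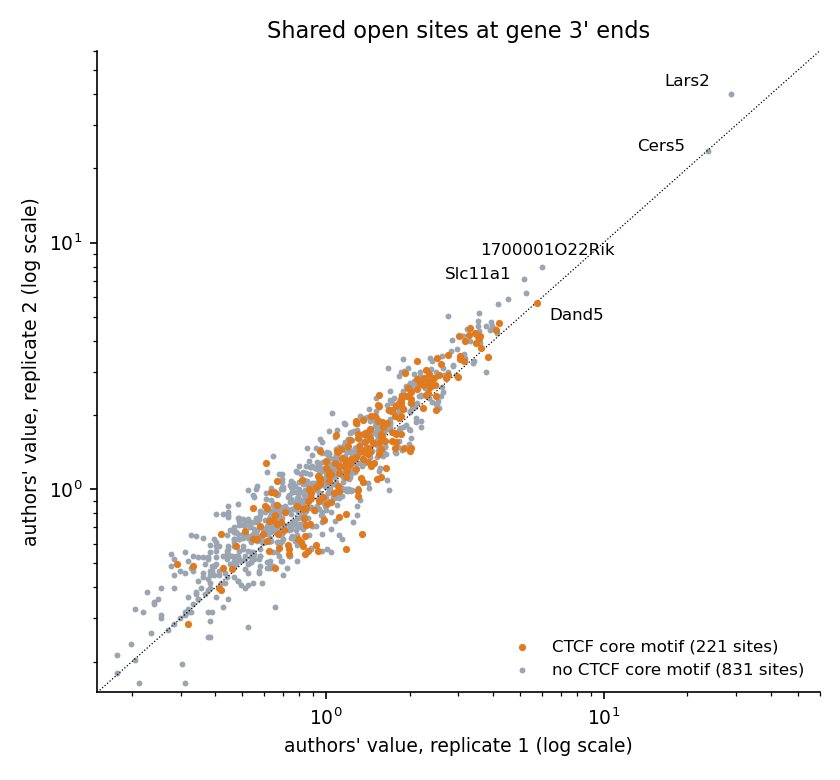
The authors' value of each of the 1052 shared 3' end sites in replicate 1 (x axis) and replicate 2 (y axis), both on log scales, with the 221 sites that hold a CTCF core motif in orange and the 831 without in grey. The dotted line marks equal values, and the sites at Lars2 and Cers5 stand apart from the rest.

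Only 2 shared sites had a mean value of 10 or more. The site at Lars2, which encodes the mitochondrial leucyl-tRNA synthetase, had values of 28.8 and 39.9 (chr9:123461881-123462140, in the UTR, position -655 bp, where negative positions lie inside the gene). Of the 31-base words of that window, 58.8% are found again elsewhere in the genome; the part of this repetition in its value was not tested. The site at Cers5, a ceramide synthase gene, had 23.7 and 23.4 (chr15:99735661-99736060, position -980 bp), with 0% of its words found again and 1 footprint in each replicate.

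The next sites were at most 7.96 in any replicate. The site of 1700001O22Rik at +78 bp had 6.00 and 7.96, and that of Slc11a1 at +919 bp had 5.17 and 7.14. Pheta2, an endosomal protein gene, had 5.27 and 6.24, but this site lies 7 bp from the start of an annotated transcript. Dand5, a secreted inhibitor of Nodal signals, had 5.74 and 5.67 at -336 bp, and its window holds a CTCF core. Fam120a, which encodes an RNA-binding scaffold protein, had 4.53 and 5.90 at +438 bp, with an EGR motif and an SP and KLF motif.

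Per1, a repressor of the circadian clock that neuronal activity also induces, had 4.16 and 5.63 at +951 bp (chr11:69110801-69111020). A further shared site of Per1 at +551 bp had 1.70 and 1.93. Skap2, an adaptor of Src kinases, had 4.19 and 4.74 and a CTCF core. Mrpl58, a peptidyl-tRNA hydrolase of the mitochondrial ribosome, had 3.55 and 5.19 in a wide site with 13 and 7 footprints. Rtn2, a reticulon that shapes the endoplasmic reticulum, had 3.92 and 4.77, and Thbs4, a thrombospondin, had 4.06 and 4.48. Each of the 12 highest sites had at least 1 footprint in both replicates.

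Some sites lay near the start of an annotated transcript. Of the 3' end sites, 219 (11.9%) and 200 (13.1%) lay within 2 kb of such a start, although more than 2 kb from every gene's outermost 5' end. The shares were 9.29% and 10.5% in other distal peaks and 35.6% and 39.4% over all peaks. A window that is CpG-rich as promoters often are, with GC of at least 50% and an observed over expected CpG ratio of at least 0.6, was found at 7.02% and 9.09% of 3' end sites. It was found at 4.97% and 6.59% of other distal peaks, and at 18.4% and 22.7% of all peaks.

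Among the 15 motifs searched, CTCF had the largest difference in share between 3' end sites and other distal peaks in percentage points, though not as a ratio. As a ratio the rare MEF2 motif differed more, in 3 sites of each replicate, or 0.163% and 0.196% of 3' end sites, against 0.493% and 0.379% of other distal peaks. The core was in 282 sites of replicate 1 (15.4%, 13.7% to 17.1%) and 235 sites of replicate 2 (15.4%, 13.6% to 17.3%). It was in 9.30% and 9.74% of other distal peaks and in 7.96% and 7.97% of all peaks. The motif was searched on both strands in 200 bp about the midpoint, and a match is a match of letters, not a measured binding of CTCF. In each of 5 ranges of GC content the share was above that of other distal peaks in both replicates. At 50% to 55% GC it was 16.7% and 15.9%, against 9.04% and 8.73%.

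SP and KLF motifs were in 5.498% and 5.04% of 3' end sites, against 3.56% and 4.28% of other distal peaks. Their interval in replicate 2, 3.99% to 6.25%, holds the share of other distal peaks. The poly(A) signal, searched on the strand of the gene, was in 7.02% and 7.46%, against 6.19% and 5.13%. In replicate 1 its interval, 5.90% to 8.29%, also holds the other share. The signal was in 8.78% and 8.29% of the sites inside the gene, and in 5.57% and 6.76% of those downstream.

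AP-1 and NeuroD motifs, by contrast, were in a smaller share of 3' end sites than of other distal peaks. These shares were not compared at equal GC content. AP-1 was in 6.37% and 5.23% of 3' end sites, against 7.76% and 7.08% of other distal peaks. The NeuroD E-box CAGATGG was in 10.0% and 10.6%, against 12.6% and 11.98%. In replicate 2 the E-box interval of 3' end sites, 9.10% to 12.2%, holds the share of other distal peaks. Over all peaks AP-1 was in 6.54% and 5.76% and the E-box in 10.3% and 9.45%. The other motifs were in fewer than 2% of sites of either set.

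**Figure D3:**
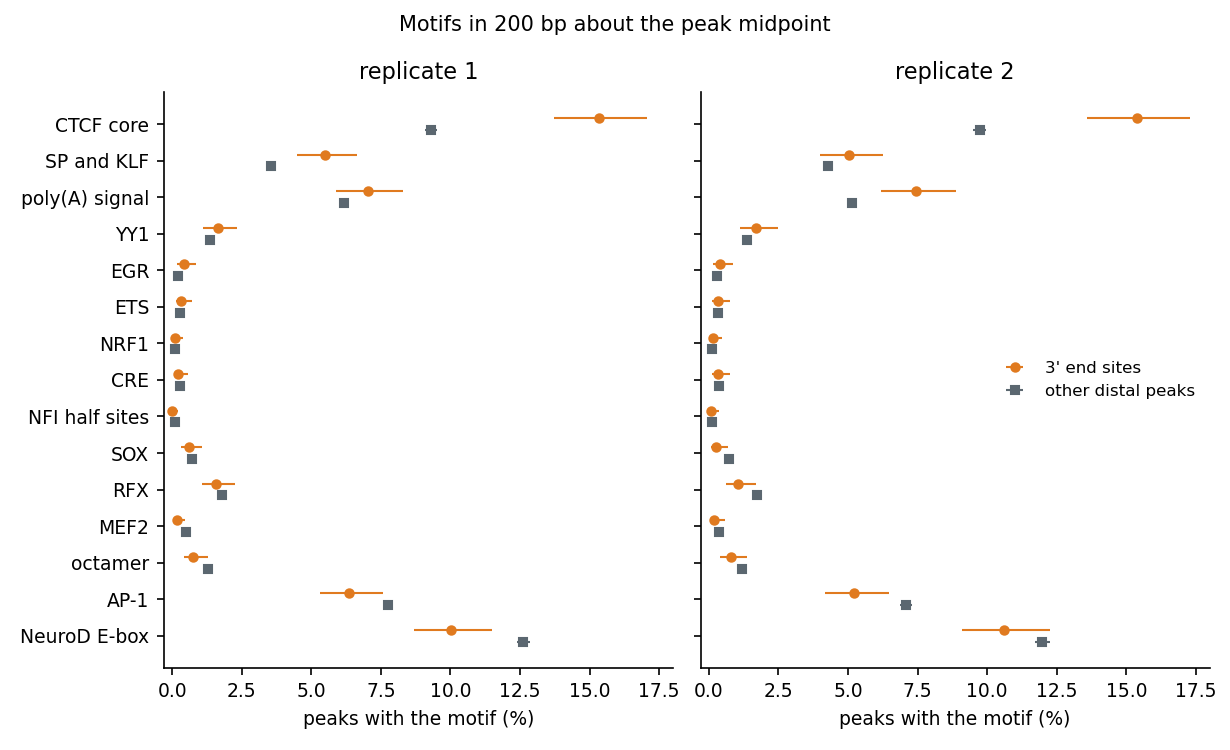
Share in percent of 3' end sites (orange circles) and of other distal peaks (grey squares) with each of 15 motifs in 200 bp about the midpoint, with exact 95% intervals, in replicate 1 (left) and replicate 2 (right). The CTCF core, at 15.4% against 9.30% and 9.74%, is the farthest to the right of the other distal peaks, and AP-1 and the NeuroD E-box lie to the left of them.

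The CTCF share did not end at 1 kb from the gene end. In distal peaks inside the gene it was 15.8% and 14.8% at 5 to 10 kb, 15.6% and 16.1% at 1 to 2 kb, and 14.2% and 13.4% in the last 1 kb. Downstream it was 16.3% and 17.0% in the first 1 kb, 18.1% and 18.7% at 1 to 2 kb, and 16.9% and 16.5% at 5 to 10 kb. The share of 3' end sites was thus not above that of distal peaks just outside the 1 kb. Among other distal peaks it was 11.6% in both replicates at 2 to 5 kb from a gene start and 6.13% and 6.78% beyond 50 kb. Among 3' end sites it was 15.4% and 13.5% at 2 to 5 kb and 15.1% and 16.9% beyond 50 kb.

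Gene ends held more CTCF core motifs, and a larger share of them was open. In eligible sequence there were 78.8 matches per Mb within 1 kb of an end, against 52.2 elsewhere. Of the 2507 matches near ends, 12.2% and 10.2% lay in a peak, against 6.17% and 5.06% of 124737 matches elsewhere. AP-1 matches, in comparison, were no denser near ends, at 311 per Mb against 320 per Mb. Of these, 1.35% and 0.979% lay in a peak near ends, against 0.905% and 0.617% elsewhere. Peaks of any kind were denser near ends, by ratios of 1.75 and 1.86, so a larger open share was not particular to CTCF cores.

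CTCF cores in open sites ran along the strand of the gene more downstream of the end than inside it. Downstream of the end, within 1 kb, 104 of 166 matches in replicate 1 ran along the strand of the gene (62.7%, 54.8% to 70.0%), and 96 of 143 in replicate 2 did (67.1%, 58.8% to 74.8%). Inside the last 1 kb the shares were 49.6% (40.4% to 58.8%) and 49.5% (39.2% to 59.8%), so the intervals of the 2 sides overlap in both replicates. At 2 to 5 kb downstream they were 60.6% and 59.8%, and at 2 to 5 kb inside the gene 44.2% and 44.3%. At 1 to 2 kb downstream, between these ranges, they were 50.6% and 51.1%. The replicates cover many of the same sites and are not independent counts of matches.

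Among all CTCF core matches within 1 kb of an end, open or not, 49.8% ran along the gene, against 50.7% elsewhere. Those inside peaks stood at 56.4% and 58.8% near ends, against 49.3% and 48.7% elsewhere. Over both sides of the end together, the excess along the gene was thus seen in open matches and not in all matches. All matches were not split by side, so a strand bias of the letters downstream alone was not tested.

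**Figure D4:**
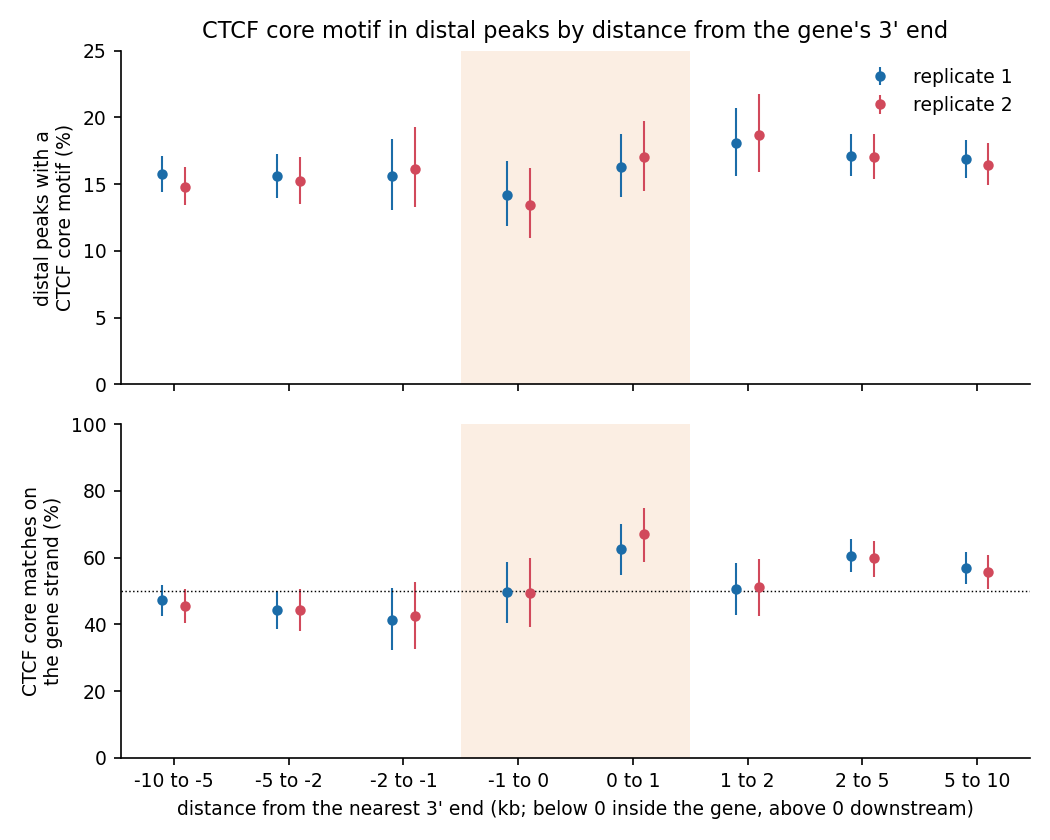
Upper plot, share in percent of distal peaks with a CTCF core motif, by distance in kb from the nearest 3' end. Lower plot, share in percent of the CTCF core matches that run along the strand of the gene, with exact 95% intervals, the 1 kb on either side of the end shaded and 50% dotted. The shares along the gene are 62.7% and 67.1% in the first 1 kb downstream and 49.6% and 49.5% in the last 1 kb of the gene.

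Sites with a CTCF core had higher values and a higher shared share than sites without. With a core the median value was 1.15 in replicate 1 and 1.33 in replicate 2, against 0.629 and 0.717 for 3' end sites without one. Of the sites with a core, 80.9% and 94.9% were shared, against 59.5% and 70.0% without. The same order was seen in other distal peaks, where the medians were 0.940 and 1.11 with a core, against 0.502 and 0.603 without, and 77.7% and 92.9% were shared, against 58.1% and 74.7%. A footprint covered at least 0.5 of the match at 81.2% and 82.1% of matches in 3' end sites, against 74.0% and 74.1% in other distal peaks. These footprint shares were not compared at equal value, and the 3' end sites with a core had the higher median values.

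At equal value the CTCF share of 3' end sites was above that of other distal peaks in the upper 3 of 4 ranges in both replicates, and its interval lay clear of the other share in both replicates only in the highest range. In the highest of 4 value ranges, cut at the quartiles of other distal peaks, 27.7% (24.5% to 31.2%) and 27.4% (23.8% to 31.2%) of 3' end sites held a core, against 20.8% and 21.5% of other distal peaks. In the lowest range it was 3.27% and 1.46%, against 3.16% and 3.18%. Between them, the intervals of 3' end sites held the other share in 3 of 4 cases.

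**Figure D5:**
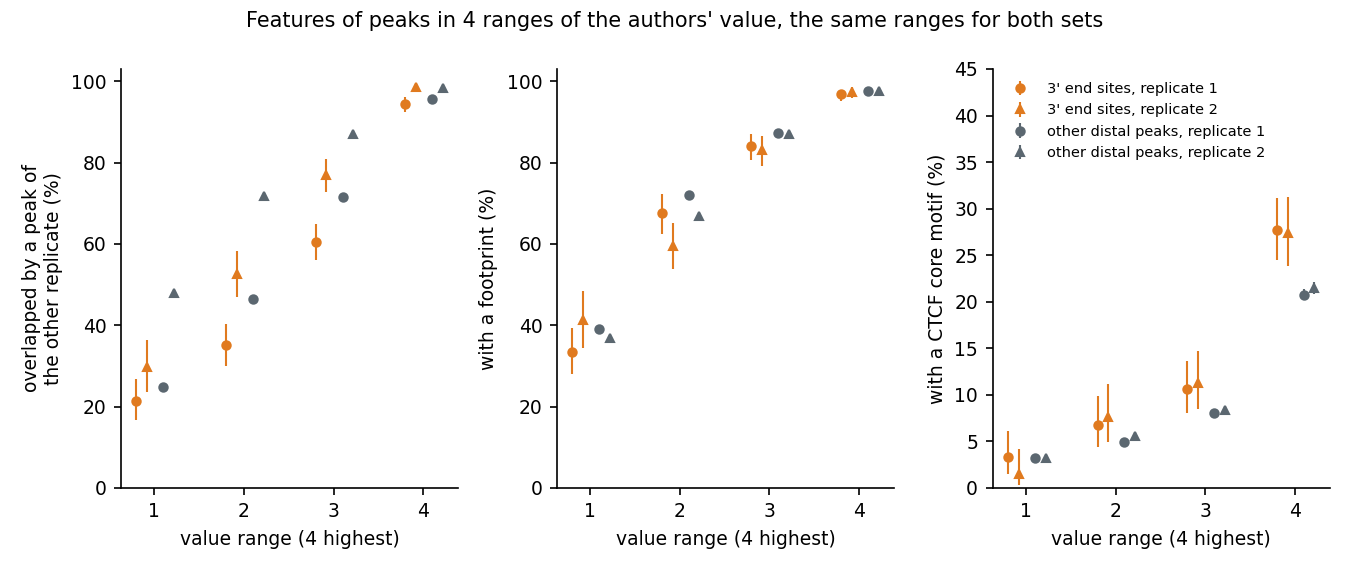
Share in percent of 3' end sites (orange) and other distal peaks (grey) that are overlapped by a peak of the other replicate (left), hold a footprint (middle) or hold a CTCF core motif (right), in 4 ranges of the authors' value cut at the quartiles of other distal peaks of each replicate, with exact 95% intervals. At the same value the share overlapped is lower for 3' end sites in the middle ranges, and in the highest range the CTCF share is higher, at 27.7% and 27.4% against 20.8% and 21.5%.

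Most 3' end sites held a footprint, at the authors' false discovery rate of 0.01. It was 78.2% (76.2% to 80.0%) in replicate 1, against 74.2% of other distal peaks, and 78.1% (75.9% to 80.1%) in replicate 2, against 72.4%. Sites with 3 or more footprints made up 33.5% and 33.3% of 3' end sites, against 28.8% and 27.2% of other distal peaks. Over all peaks that share was higher than in 3' end sites, at 34.5% and 35.0%, while 75.2% and 74.5% of all peaks had at least 1 footprint. At widths of 150 to 250 bp the shares with a footprint were 90.2% and 89.1%, against 85.8% and 84.8% of other distal peaks. At widths of 200 bp or more the replicates differed in direction, at 90.4% and 91.1% of 3' end sites, against 90.9% and 89.4% of other distal peaks. At equal value the excess was seen only in the lowest range of replicate 2, where 41.3% of 3' end sites had a footprint (34.5% to 48.3%), against 36.8% of other distal peaks, a share within that interval. In the lowest range of replicate 1 it was 33.5% of 3' end sites, against 39.0% of other distal peaks. In the lower middle range 67.5% and 59.6% of 3' end sites had a footprint, against 72.0% and 66.8% of other distal peaks, and in the highest range 96.7% and 97.4% did, against 97.6% and 97.5%.

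A shared site marked the end of 963 of 21938 protein-coding genes, or 4.39%. A site in replicate 1 was found at 1472 genes (6.71%) and in replicate 2 at 1245 (5.68%). Of the 963 genes, 886 had 1 shared site, 69 had 2 and 8 had 3. These genes were also more often open at the start: 699 (72.6%, 69.7% to 75.4%) had a peak within 1000 bp of the gene start in both replicates, against 59.0% of other protein-coding genes. Seen the other way, 5.34% of genes with such a promoter peak had a shared 3' end site, against 2.98% of genes without. The same order held within each of 4 classes of gene length, between 4.77% against 1.46% for genes under 5 kb and 5.24% against 3.98% for genes of 20 to 100 kb. The median gene with a shared site was 20.003 kb long, against 17.3 kb for other genes.

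Of the 8 genes with 3 shared sites, the first 3 by name were Acap3, Crygn and Dtx1. Dtx1, a ubiquitin ligase of the Notch pathway, had sites at -904, -159 and +251 bp. The middle site had 3.17 and 3.41, and the outer ones had 0.969 and 1.40 inside the gene and 1.499 and 1.88 downstream. The middle and downstream sites also lie at the end of Rasal1, a Ras GTPase-activating protein gene on the other strand. Crygn, a crystallin of the eye lens, had 2.35 and 2.76 at +42 bp and weaker sites on either side. The sites of Acap3, a GTPase-activating protein of Arf6, were weak, between 0.233 and 0.351 in either replicate. Many of these sites lie near the start of an annotated transcript. The distances, from the site farthest inside the gene outward, are 157, 363 and 923 bp at Crygn. They are 973, 1718 and 1358 bp at Dtx1 and 1022, 1698 and 2204 bp at Acap3.

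Gene lists of the tissue's cell classes and others, among them housekeeping, liver and striated muscle genes, were then read against the 4.39% of all protein-coding genes. The lists were chosen with earlier results of these data known. The tissue is a mixture of cells, and a low value in fewer cells cannot be told apart from a lower openness in more of them. Over 13 lists with 195 genes, 20 genes (10.3%, 6.38% to 15.4%) had a shared 3' end site. Each list holds 10 to 20 genes, so the interval of a single list is wide.

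Genes of glutamatergic and pyramidal neurons had 4 of 18. Nrgn, neurogranin, a postsynaptic calmodulin-binding protein, had 1.83 and 1.74 at -489 bp in its UTR (chr9:37544861-37545100), at a place where the gene Vsig2 also ends. Fezf2, a zinc finger factor of deep-layer projection neurons, had 4 sites in each replicate, between 0.799 and 1.31 in replicate 1 and between 0.815 and 1.74 in replicate 2, some of them overlapping each other in replicate 2. Neurod6, a bHLH factor of pyramidal neurons, had 0.969 and 1.56, and Tbr1, a T-box factor of glutamatergic neurons, had 0.643 and 0.685. Gria1, Grik4 and Neurod2 had sites in replicate 1 only, the highest being 0.651 at Neurod2, and Pou3f1 had one in replicate 2 only, at 0.652.

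Of 15 pan-neuronal genes 3 had a shared site. Eno2, the neuronal enolase, had 1.51 and 1.70 at +541 bp (chr6:124759418-124759606), Dnm1, the dynamin of synaptic vesicle recycling, had 1.22 and 1.26 at +150 bp, and Stmn2, a tubulin-binding protein of growing axons, had 0.933 and 1.12 at +250 bp. The Dnm1 site holds a CTCF core and lies also at the end of Golga2, a Golgi matrix gene. Among 20 activity-induced genes only Per1, given above, and Egr4, a zinc finger factor, had one. The site of Egr4 at +450 bp had 1.53 and 1.35.

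Dentate granule cell genes had 0 of 10, for which the exact interval reaches 30.8%. GABAergic interneuron genes had 1 of 16, Dlx2, a homeobox factor, at 0.339 and 0.644. Another pair of overlapping Dlx2 sites farther downstream had 0.339 and 0.383. Forebrain transcription factor genes had 3 of 17: Sox4 at 0.827 and 0.872, Tcf4 at 0.750 and 0.693, and Mef2c at 0.467 and 0.611. All 3 encode factors of neuronal development, and a further 3 of the list, Pou3f3, Emx2 and Pou3f2, had a site in a single replicate.

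The astrocyte, oligodendrocyte lineage and endothelial lists had 1 gene each with a shared site, which is not below the share of all protein-coding genes. Of 14 astrocyte genes only Slc1a3, a glutamate transporter, had a shared site (0.643 and 0.750), and its window holds CTCF core, AP-1 and poly(A) signal motifs. Of 14 oligodendrocyte lineage genes only Nkx2-2, a homeobox factor, did (1.12 and 0.954), and of 14 endothelial and mural genes only Kdr, a VEGF receptor (0.375 and 0.530). Microglial genes had 0 of 14 and liver genes 0 of 14, for each of which the interval reaches 23.2%.

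Sites were not limited to genes of neural tissue. Gapdh, a glycolytic enzyme, had 1.30 and 1.41 in a site that also lies at the end of Iffo1, and Actb, cytoplasmic actin, had 0.615 and 0.505. The same replicate 1 site of Actb also spans a replicate 2 site at +424 bp with a value of 0.636. Gapdh and Actb were 2 of 18 housekeeping genes. In the striated muscle list Myod1, the master factor of muscle cells, had 1.22 and 1.13 at +92 bp, with 3 footprints in each replicate, and Acta1, skeletal actin, had 0.636 and 0.701, with none. These made 2 of 13 muscle genes, against 4 of 13 with a promoter peak in both replicates.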

How the data were processed

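DNase-seq was run on 2 biological replicates of 1 hippocampal tissue. Per the deposited file descriptions, each file was made from 1 library aligned to mm10, so replicates were not pooled. Aligner, caller and depth: not given in the sources used here. The authors deposited a signal value per peak, with no stated unit, a longer and a shorter peak list, footprints, and p-value files that hold false discovery rates of the cut rate. The longer list was used. Some peaks of a list overlap each other, 3717 in replicate 1 and 3205 in replicate 2, 43 and 39 of them 3' end sites.

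Gene ends, coding sequence and DNA came from GENCODE M21 and GRCm38. Reads of both alleles of the hybrid were set against the C57BL/6 reference, whose effect on the values was not tested. Motifs were searched in 200 bp about the midpoint. Words of 31 bases, taken every 10 bases, were looked up in the whole genome. Shares carry exact 95% binomial intervals. Scripts used Python 3.11.15, numpy 2.4.6, pandas 2.3.3, scipy 1.17.1, pysam 0.24.0 and bedtools 2.31.1, and were tested on simulated data.

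Members, gene lists and motifs were chosen with earlier results of these data known. Named genes are those of the 12 highest shared sites, up to 2 genes of each list with the highest shared sites, 3 genes with the most shared sites, and the 2 highest sites of each replicate without a peak in the other. Other listed genes with sites are named after their values were seen. The ranges of GC content and value were also chosen after seeing the data. Alternatives were other distances, start sites, coding shares, overlaps and peak lists, and leaving out a replicate or repeated words.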

Additional observations from a re-analysis of the deposited data

How the results depend on the processing

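The values below are means over the replicates. The number of 3' end sites was 1683, and it was 834.5 within 500 bp of the end, 3174 within 2 kb and 861 in the shorter peak list. Genes with a shared site numbered 963, and were 498, 1717 and 515 in the same order. Counting genes with a site in a single replicate gave between 1245 and 1472. The share overlapped by a peak of the other replicate was 68.3%, and 59.2% when 0.5 of the length had to be shared.

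The share downstream was 54.5%, and 55.5% within 500 bp, 55.9% with every transcript start left out and 58.9% with no base on coding sequence. The ratio of median values was 1.25, and it was 1.29 within 500 bp and 1.25 within 2 kb. The ratio of densities was 1.80, and 1.68 with no base on coding sequence and 2.02 in the shorter list. The CTCF share was 15.4%, and 15.8% within 500 bp, 16.2% within 2 kb, 15.3% without transcript starts, 16.01% with no coding base, 22.3% in the shorter list (other distal peaks 15.02%) and 15.5% without windows of repeated words, a setting chosen after seeing the data. The footprint share was 78.1%, and in the same order 78.3%, 78.6%, 78.0%, 76.9%, 88.6% (other distal peaks 86.7%) and 78.3%. The CpG-rich share was 8.06%, and 6.45% with no coding base and 11.6% in the shorter list. The cause of these moves was not tested.

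No paired analysis was possible because there is 1 group of samples. There were 2 replicates, for which the labels do not say that the animals differ. The scale of the peak values and the depth are not known, so a peak missing from a list is not shown to be closed DNA.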

Other observations

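The share of sites with an own false discovery rate under 0.001 was 55.4% in replicate 1 and 53.8% in replicate 2, against 49.6% and 48.7% of other distal peaks. Over all peaks it was 55.9% and 56.7%, above the 3' end sites in both replicates. Windows in which 0.5 or more of the 31-base words are found again made up 1.25% and 1.18% of 3' end sites, against 1.17% and 1.32% of other distal peaks.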
